A study of Mus musculus with 2 samples.

Results

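Conventional dendritic and Cd209a-positive cells were examined in 2 single-cell RNA libraries of mouse spleen, in which 71 of 14646 cells met the definition used. A member cell held at least 2 UMIs (unique molecular identifiers, each standing for 1 captured transcript) summed over the 5 markers Flt3, Xcr1, Clec9a, Cd209a and Zbtb46. It also had at least 0.5% of its UMIs in the MHC class II genes H2-Aa, H2-Ab1 and Cd74, at most 1 UMI over Cd79a, Cd79b and Ms4a1 (B cells), at most 1 over Cd3e and Cd3g (T cells) and at most 1 of Siglech (plasmacytoid dendritic cells). Within the members, cells with an Xcr1 or Clec9a UMI were separated from cells with a Cd209a UMI. The cells came from spleens dissociated and sorted for CD11b and Gr1, a gate aimed at neutrophils and monocytes, so any dendritic cell recovered had passed that gate. One library held cells of 5 pooled wild-type spleens of the FVB/n strain. The other held cells of 3 pooled spleens of tumour-bearing PyMT mice, whose strain label reads PYMT. The promoter that drives the PyMT transgene, the animals' ages and the stage of the tumours are not given in the sources used here. Each condition is therefore 1 library of pooled animals: no difference between them has a replicate check, no p-value was computed, and intervals are 95% intervals that cover counting error only.

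Conventional dendritic cells take up, process and present antigen to T cells and depend on the receptor Flt3 and its ligand. The cDC1 branch is marked by the chemokine receptor Xcr1 and the dead-cell receptor Clec9a, requires the transcription factors Irf8, Batf3 and Id2, and is specialised in presenting captured antigen to CD8 T cells. The cDC2 branch carries Sirpa and CD11b and presents mainly to CD4 T cells. Cd209a, a C-type lectin also called DC-SIGN, is made by a share of cDC2, by monocyte-derived cells and by some monocytes, so that it does not define a dendritic cell without other markers. On the mouse GRCm38 (mm10) assembly, Xcr1 lies on chromosome 9 at 123852315 to 123862029, Clec9a on chromosome 6 at 129408862 to 129424763, and Cd209a on chromosome 8 at 3743397 to 3748984.

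The wild-type matrix held 5491 cells with a median of 5668 UMIs, and the PyMT matrix 9155 cells with a median of 7063 UMIs. Barcodes shared by both libraries numbered 72, of which 2 belonged to a member in either library and 0 to a member in both. A simulated-doublet score ranked cells within each library, and the highest scores, 241 cells in wild type and 671 in PyMT, were taken as doublet-like. They included 1 wild-type member and 8 PyMT members, among them 4 of the 8 cells with Xcr1 or Clec9a and 2 of the 16 with Cd209a. The share of a member's UMIs that came from 20 neutrophil genes fell into separate ranges in wild type. In PyMT it ran close to the 10% limit on both sides. Of the wild-type members, 27 lay at or below 5.02% and 14 lay between 14.5% and 32.8%. Of the PyMT members, 23 lay at or below 9.62% and 7 lay between 11.9% and 31%. The neutrophil-rich members were also deeper, with a median of 19296 UMIs against 6229 in wild type and 15718 against 9371 in PyMT. Whether these are doublets or cells with adhering or free neutrophil RNA was not tested. Results are given with and without members at or above 10%.

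**Figure D1:**
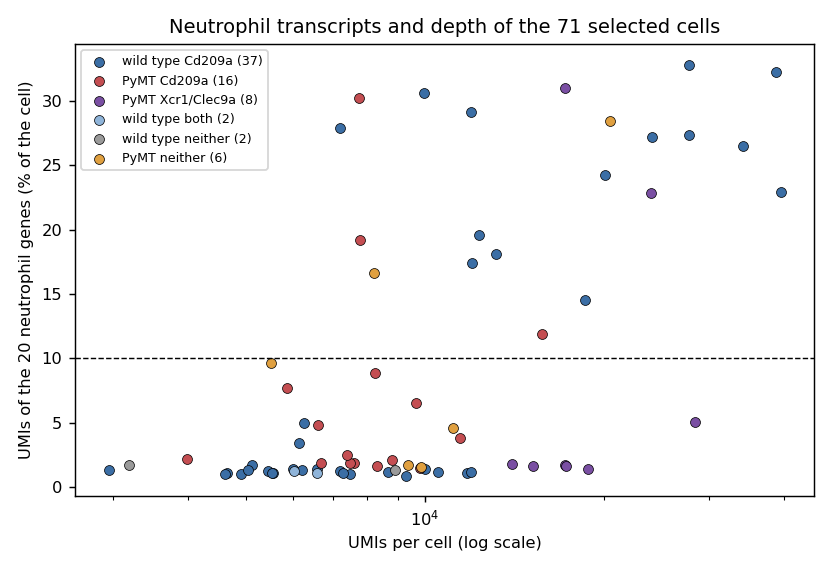
UMIs per cell (horizontal, log scale) against the percent of UMIs from 20 neutrophil genes (vertical) for the 41 wild-type and 30 PyMT members, coloured by subset. The 14 neutrophil-rich wild-type members are Cd209a cells, and the 8 PyMT cells with Xcr1 or Clec9a sit at 13977 UMIs or more.

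The members were 41 of 5491 wild-type cells (0.747%, exact Clopper-Pearson interval 0.536 to 1.01%) and 30 of 9155 PyMT cells (0.328%, 0.221 to 0.467%). The denominators include the neutrophils of each sort, 4437 and 6156 cells. The make-up of the members differed between the libraries. In wild type, 37 of 41 members (90.2%) had Cd209a without Xcr1 or Clec9a, and 0 had Xcr1 or Clec9a without Cd209a, which with 41 members allows a share of up to 8.6%. That bound covers counting error only and applies to cells with such a UMI, not to cells that express the genes. In PyMT, 16 of 30 (53.3%, 34.3 to 71.7%) had Cd209a and 8 of 30 (26.7%, 12.3 to 45.9%) had Xcr1 or Clec9a, with no cell in both. The remaining members were 2 wild-type cells with both kinds of marker, and 2 wild-type and 6 PyMT cells with neither. The 8 PyMT cells had a median of 17210.5 UMIs against 8679 in the wild-type Cd209a cells, and the part of depth in this difference was not tested. With every cell thinned to 1000 UMIs, 10 wild-type and 5 PyMT cells still met the definition.

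Membership rested on few UMIs for part of the cells. Exactly 2 marker UMIs were found in 13 wild-type and 2 PyMT members, and 21 wild-type and 10 PyMT cells with 1 marker UMI met the other conditions. Members went down to an MHC class II share of 0.507% in the wild-type library and 1.25% in the PyMT library. The highest share among cells that missed that threshold alone was 0.455% in wild type (30 such cells, all 30 with Cd209a) and 0.164% in PyMT (19 such cells, 13 with Flt3). The wild-type members thus run up to the threshold, while in PyMT a gap separates members from non-members. The markers were also found in some other cells. Xcr1 was found in 0.065% of PyMT neutrophils, Clec9a in 0.0162% and Cd209a in 0.227%, and in wild-type neutrophils Cd209a was found in 1.13%. In wild-type B cells Cd209a was found in 3.16% and Flt3 in 1.44%, and Xcr1 and Clec9a in 0 of 348. Monocytes were defined as having no marker UMI and give no such share.

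Most wild-type members carried monocyte genes, which the definition did not use. Among the 37 wild-type Cd209a cells, Csf1r, the receptor for macrophage colony-stimulating factor, was found in 34 and Ccr2, which guides monocytes out of bone marrow, in 32. The monocyte surface gene Ly6c2 was found in 27, and lysozyme (Lyz2) in all 37, with 4 to 941 UMIs. Of the 23 such cells under 10% neutrophil UMIs, Csf1r was found in 21, Ccr2 in 19, Ly6c2 in 13 and Lyz2 in 23. Wild-type neutrophils carried Ly6c2 in 99.6% and Lyz2 in 100% of cells, and wild-type B cells Lyz2 in 93.4%. Because of Csf1r and Ccr2, the dendritic label was not used for the 37 cells, and they are called Cd209a cells below. As a description of the markers that chose the members, 12 of 41 wild-type members and 23 of 30 PyMT members held Flt3, and Zbtb46, a transcription factor of conventional dendritic cells, was found in 3 and 5. The 8 PyMT cells with Xcr1 or Clec9a are called the Xcr1 subset, after the markers that chose them. Summed over the 8 cells, a UMI was found for 24 of 26 genes of a cDC1 list. That list includes Xcr1 and Clec9a, and the count is not given here for other cells, so nothing is read from it.

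Every cell of the Xcr1 subset carried cDC1 genes beyond the 2 that chose it. Ordered by Irf8, the transcription factor on which cDC1 depend, the 8 cells held 4, 14, 20, 26, 27, 38, 44 and 45 Irf8 UMIs. In the same order, Naaa, a lysosomal lipid amidase, gave 5, 7, 14, 21, 16, 19, 29 and 21 UMIs. Cystatin C (Cst3), an inhibitor of cathepsins that dendritic cells make in large amounts, gave 310, 205, 246, 218, 173, 398, 327 and 459 UMIs. No cell lacked any of these genes, and the cell with the fewest Irf8 UMIs was also the one with 31% neutrophil UMIs. Batf3, the partner of Irf8 in cDC1, and Cd24a were found in all 8 cells. The T cell co-receptor chain Cd8a, which splenic cDC1 also express, was found in 6 of 8. The adhesion molecule Cadm1 and the integrin chain Itgae were each found in 5 of 8, Rab7b in 6, Gcsam in 7 and the double-stranded RNA receptor Tlr3 in 5. The choosing markers themselves gave 30 Xcr1 UMIs over all 8 cells, 8 Clec9a UMIs in 3 of them, and 21 Flt3 UMIs in 7. B cells of the same library carried Irf8 in 68.5% of cells but Naaa in 10.5%, Batf3 in 1.86% and Cd8a in 0.196%. Its classical monocytes carried Irf8 in 75.5%, Naaa in 59.8%, Batf3 in 27.8%, Cst3 in 99.9% and Cd8a in 0%. Cd24a was found in 94.4% of its neutrophils and 61.2% of its B cells. With each cell thinned to 1000 UMIs, Irf8 was found in 50% of the Xcr1 subset, 28% of B cells and 18.4% of classical monocytes. Naaa was found in 37.5%, 1.76% and 10.4%, and Batf3 in 37.5%, 0.294% and 4.38%.

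**Figure D2:**
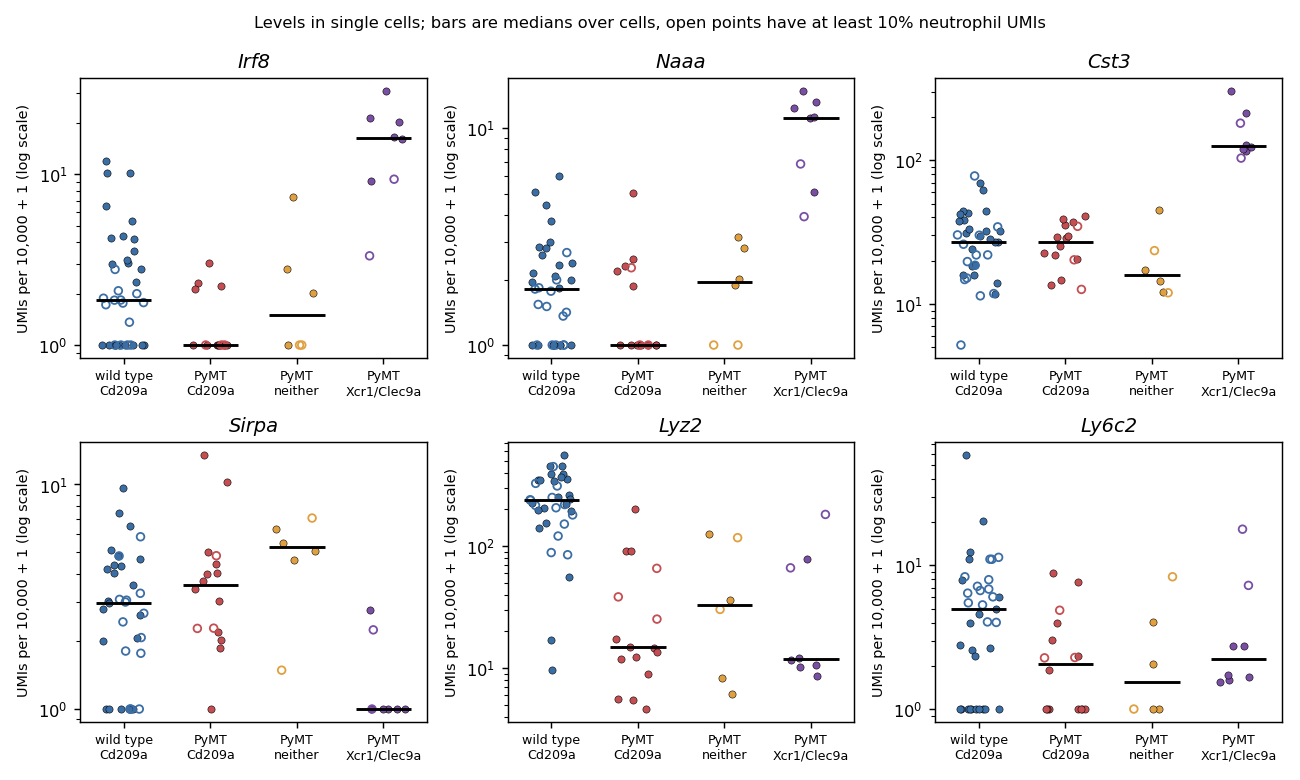
UMIs per 10000 UMIs plus 1 in single cells (vertical, log scale) for Irf8, Naaa, Cst3, Sirpa, Lyz2 and Ly6c2, with 1 point per cell, bars at the medians and open points for cells at or above 10% neutrophil UMIs. The 8 Xcr1 cells lie above every PyMT Cd209a cell for Irf8 and Cst3, and Lyz2 is lower in most PyMT than in most wild-type Cd209a cells.

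Set against the 16 Cd209a cells of the same PyMT library, the Xcr1 subset was higher for most cDC1 genes with enough UMIs and lower for most of the cDC2, chemokine, inflammatory and immediate-early genes tested. Lysosomal genes split. A gene counted as higher or lower when its CPM (UMIs of the gene scaled to the same total in every group of cells) differed at least 2-fold with a counting interval that excluded no change, among 1125 genes with at least 30 UMIs in both sums together. By that rule 77 genes (6.84%) were higher in the Xcr1 subset, 150 (13.3%) were lower, and the log2 ratio of the middle gene was -0.01. Counts over all genes, here and below, include the genes that chose the cells, such as Xcr1 and Cd209a in this comparison. Median-of-ratios scaling gave 123 higher and 104 lower and moved that value to 0.18, so that 54.2% in place of 33.9% of the called genes were higher. Both subsets come from the same sort and library. The Xcr1 cells were deeper, with 13977 to 28352 UMIs per cell against 3996 to 15718, and the ranges overlapped.

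Among transcription factors, Irf8 stood at 1436 CPM in the Xcr1 subset and 37.6 CPM in the Cd209a cells, a log2 ratio of 5.26 (4.01 to 6.89). It was found in 8 of 8 and 4 of 16 cells, and per 10000 UMIs the 8 cells (2.33 to 29.6) all lay above the highest Cd209a cell (2.04). Id2, an inhibitor of other helix-loop-helix factors, was higher by 1.56 (1.12 to 2.03). Batf3 gave 41 against 23 UMIs, with a log2 ratio of 0.64 (-0.13 to 1.45) that did not meet the rule, and it was found in 11 of 16 Cd209a cells. Lower in the Xcr1 subset were Klf4, a factor of monocytes and a part of cDC2 (-1.83), and Bcl11a (-1.51). Irf4, the cDC2 factor, gave 0 and 2 UMIs, too few for a ratio.

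Of the 24 cDC1 genes not used for membership, 9 had 30 UMIs and 7 of these were higher, with none lower and a median of 1.56. Beside Irf8, Id2 and Naaa (3.69, 2.72 to 4.85), these were the palmitoyl-thioesterase Ppt1 (2.88, 2.27 to 3.56), Cd24a (1.42), Wdfy4 (1.21), which cDC1 need to present cell-borne antigen on MHC class I, and Cd8a. Cd8a gave 36 UMIs against 0, a log2 ratio of 3.40 with the 0 set to a floor of 3 counts over the group. Below the minimum of 30 UMIs, Cadm1 gave 23 against 0 UMIs, Rab7b 14 against 0, Itgae 12 against 0, Gcsam 9 against 0, Btla 25 against 3, Snx22 19 against 3 and Tlr3 7 against 2. Each of these 7 was more frequent in the Xcr1 subset by count, and no call was made for them.

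Of the 24 cDC2 genes, 8 had 30 UMIs, with 6 lower in the Xcr1 subset, 1 higher and a median of -1.88. The signal-regulatory receptor Sirpa gave 8 against 38 UMIs (-2.44, -3.75 to -1.32) and was found in 2 of 8 against 15 of 16 cells. The galactose-type lectin Clec10a gave 0 against 49 UMIs, a log2 ratio of -4.22 with the 0 set to the same floor, although it was found in 6 of the 16 Cd209a cells. The lymphotoxin gene Ltb (-1.92), Cd300a (-1.04), S100a4 (-2.59) and Klf4 were lower too, while the tetraspanin Cd81 was higher, with 30 against 10 UMIs. Zeb2, required by cDC2, gave 2 against 22 UMIs, Cd7 2 against 22, and Cd4 0 against 11, all under the minimum. The membrane-protein genes Tmem176a and Tmem176b had the lowest ratios among the genes named by size: Tmem176a was found in 15 of 16 Cd209a cells and gave 1 against 80 UMIs (-6.51, -11.83 to -3.99), and Tmem176b had a ratio of -4.61.

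Genes of antigen handling split. Cst3 stood at 15386 against 2666 CPM (2.53, 2.37 to 2.69), and per 10000 UMIs the Xcr1 cells (103 to 302) did not overlap the Cd209a cells (11.6 to 39.8). Of 16 lysosomal and endocytic genes, 4 were higher (Cst3, Psap, Ppt1 and Naaa) and 6 were lower, all cathepsins: Ctsa, Ctsb, Ctsc, Ctsh, Ctss and Ctsz. Ctss, which cleaves the invariant chain, stood at 441 against 1209 CPM (-1.45). Of 8 MHC class II loading genes not used for membership, 4 were lower and none higher: H2-Oa, a brake on peptide loading (-1.19), Ctss, Ctsh (-1.85) and the thiol reductase Ifi30 (-1.15). Of 11 MHC class I and cross-presentation genes, the immunoproteasome subunit Psmb8 (1.03) and Wdfy4 were higher and H2-T23 was lower.

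Inflammatory and early-response transcripts were lower in the Xcr1 subset. Il1b, which encodes interleukin-1 beta, gave 16 against 177 UMIs (-3.66, -4.50 to -2.92). Of 12 immediate-early genes, 10 were lower, with a median of -1.20 and Junb at 507 against 1629.8 CPM (-1.68). Of 6 chemokine genes 5 were lower, among them Ccr1 (-2.65) and Ccl6 (-1.16), and Cxcr2, a chemokine receptor of neutrophils, was lower as well (-3.34, -4.71 to -2.21). The neutrophil list, which includes Il1b and Cxcr2, had 4 genes higher and 3 lower of 17 with all cells. Under 10% neutrophil UMIs it had none higher and 5 lower of 15 (Cxcr2, Csf3r, Ifitm6, Il1b and Stfa2l1), with a median of -0.58. Over all genes under that limit, 66 of 886 were higher and 118 were lower. The part of neutrophil RNA in the lower Il1b and Cxcr2 was not tested. The interferon-induced Ifitm1 stood at 810.1 against 2809 CPM (-1.79), with 88 of the 123 Xcr1-subset UMIs in 1 cell.

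One cell of the Xcr1 subset held cell-cycle transcripts, with 7 Mki67 and 11 Top2a UMIs, and it was among the doublet-like cells. Of the other 7 cells, 1 held a single Mki67 UMI. The first cell held 81 of the 135 UMIs of Tubb5 and 73 of the 126 of Tuba1b, both tubulin genes. The ratio of Tubb5 was 2.64 with that cell and 1.49 (0.71 to 2.33) without it. The ratio of Tuba1b was 2.03 with it and 0.96 without it, where it no longer met the rule. Irf8, Naaa, Cst3 and Ppt1 kept direction and call without the doubtful cells. Without doublet-like cells (4 against 14 cells) the ratios were 5.21, 3.76, 2.88 and 3.31. Among cells under 10% neutrophil UMIs (6 against 13) they were 5.16, 3.89, 2.56 and 2.87. Other genes named above no longer met the rule there: Bcl11a (-1.12), H2-Oa (-0.98), Cd300a (-0.89) and H2-T23 (-0.78). Ccr1 (4 against 24 UMIs) and Cd8a (28 against 0) fell under the minimum of 30 UMIs. Over all genes tested in these 6 and 13 cells, 66 of 886 were higher and 118 were lower. Of the lists, cDC1 genes were 6 higher of 7, cDC2 genes 5 lower and 1 higher of 8, and lysosomal genes 4 higher and 7 lower of 15. Immediate-early genes were 8 lower of 12 and chemokine genes 3 lower of 4.

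**Figure D3:**
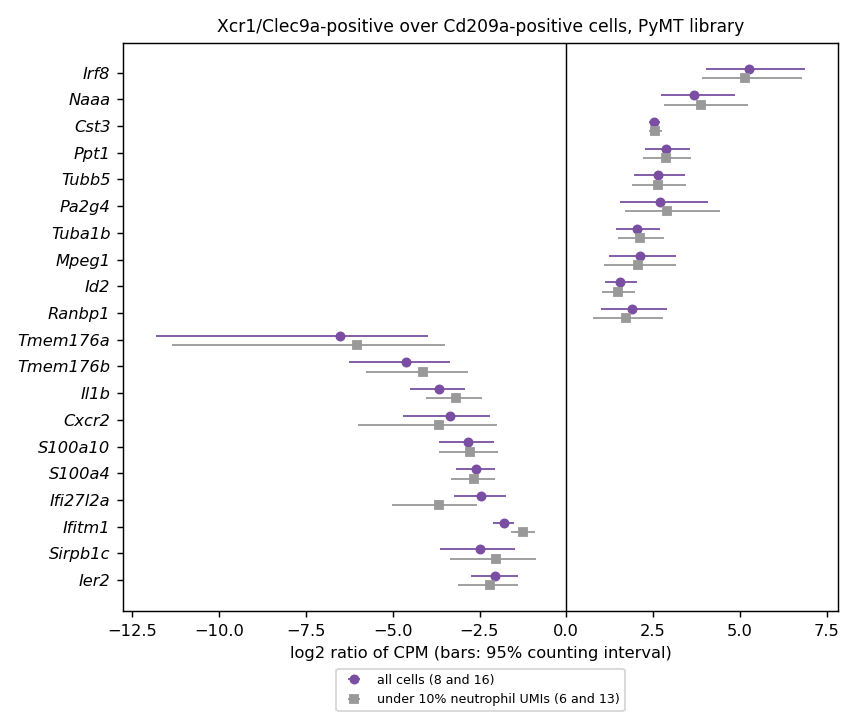
Log2 ratio of CPM, Xcr1 subset over Cd209a cells of the PyMT library, with 95% counting intervals (horizontal) for the named genes, for all 8 and 16 cells and for the 6 and 13 under 10% neutrophil UMIs. With all cells, Irf8 at 5.26 and Naaa at 3.69 lie furthest to the right, and Tmem176a at -6.51 and Tmem176b at -4.61 furthest to the left.

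The Cd209a cells differed between the libraries, and because 14 of 37 wild-type but 3 of 16 PyMT cells were neutrophil-rich, the comparison is led by the 13 PyMT and 23 wild-type cells under 10%. PyMT cells had far more Ifitm1 and more Il1b and Lrg1, and 3 of 7 MHC class II loading genes tested were higher. They had far less Apoe and Lyz2 and less of most monocyte genes. Flt3, a choosing marker, was found in 7 of these 13 PyMT and 7 of these 23 wild-type cells. Whether the kinds of cell in the subset or the level per cell shifted was not tested, here or in the monocyte comparisons below. Of 1104 genes tested, 69 (6.25%) were higher in PyMT, 80 (7.25%) were lower, and the middle gene stood at -0.09. With all 16 and 37 cells, 163 of 2226 (7.32%) were higher in PyMT and 157 (7.05%) in wild type. There the split depended on scaling: TMM gave 96 higher and 252 lower with the median at -0.23, and median of ratios 108 and 221 with the median at -0.17.

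Monocyte genes were lower in the PyMT Cd209a cells. Lyz2 stood at 3758 CPM against 28039.6 CPM in wild type, a log2 ratio of -2.90 (-3.05 to -2.75). Per 10000 UMIs, PyMT cells had 3.61 to 200.4 with a median of 12.5, and wild-type cells 8.66 to 554 with a median of 252. The ranges overlapped, with 9 of 13 PyMT cells inside the wild-type range and 4 below it. The PyMT cells were uneven: 3 cells held 306 of the 383 Lyz2 UMIs (79.9%). B cells of the PyMT library, which should lack Lyz2, stood at 3371 CPM, near the 3758 CPM of the PyMT Cd209a cells. The wild-type level was above the 7452 CPM of wild-type B cells.

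Apoe, the lipid carrier, gave 4 UMIs in 3 of 13 PyMT cells and 298 UMIs in 16 of 23 wild-type cells (-5.57, -7.46 to -4.20), with the per-cell ranges overlapping at low values. Of 13 classical monocyte genes, 7 were lower and 1, Hp, was higher, with a median of -1.07. The lower genes were Lyz2, fibronectin (Fn1, -2.72), the receptors Csf1r (-1.85) and Ccr2 (-1.07), Ly6c2 (-1.82), the coagulation factor F13a1 (-1.33) and Ms4a4c (-1.19). One wild-type cell held 42 of the 94 wild-type Ly6c2 UMIs. Of 5 nonclassical monocyte genes 4 were lower, among them the fractalkine receptor Cx3cr1 at 49.1 against 283 CPM (-2.53), whose 5 PyMT UMIs came from 1 cell. Irf8 was lower as well, with 5 against 46 UMIs (-2.56, -4.25 to -1.23), as were Mpeg1 (-2.05), Crip1 (-1.65) and Npc2 (-1.66).

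Some antigen-loading genes were higher in the PyMT Cd209a cells. H2-Oa gave 49 against 12 UMIs (2.67, 1.74 to 3.72) and H2-DMb2, part of the peptide-loading chaperone, 81 against 25 (2.34, 1.68 to 3.05). H2-DMb1 was higher by 1.01 (0.55 to 1.47), and its partner chain H2-DMa, at -0.43, was not called. Of 7 genes of this list tested, 3 were higher and none lower, with a median of 0.79. The class II genes of the definition made up a median of 4.79% of UMIs in PyMT and 1.85% in wild type. They chose the cells, so nothing is read from that difference. B cells express H2-Oa and H2-DMb2, and the summed B cell list was 167 CPM in the PyMT and 75.3 CPM in the wild-type Cd209a cells. H2-Oa stood at 481 CPM in the PyMT Cd209a cells and at 363 CPM in PyMT B cells themselves. Of 9 cDC2 genes, Ltb (1.43) and Cd7 (1.87) were higher and Zeb2 (-1.01) lower, while Sirpa (0.30), Clec10a (0.84) and Klf4 (0.06) were not called. Id2 was higher by 1.76, with 26 of its 52 PyMT UMIs in 1 cell.

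Ifitm1 gave 230 UMIs in 13 of 13 PyMT cells and 3 UMIs in 3 of 23 wild-type cells (6.90, 5.34 to 9.19), and 12 of 13 PyMT cells lay above every wild-type cell. It stood at 2257 CPM in these cells, 2885 CPM in PyMT neutrophils and 409.9 CPM in PyMT B cells, against 18.8 CPM in the wild-type Cd209a cells, 22.1 CPM in wild-type neutrophils and 19 CPM in wild-type B cells. Il1b gave 134 against 20 UMIs (3.39, 2.70 to 4.15), and 7 of 13 PyMT cells lay above the wild-type range. Lrg1, a secreted glycoprotein of neutrophils, was higher by 4.45 (3.02 to 6.38), Cxcr2 by 2.77, Socs3 by 2.69 and Ccr1 by 1.91.

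Ratios of neutrophil genes turned with the cells used. Of 16 neutrophil genes tested under the 10% limit, 7 were higher and 1, Lyz1, was lower in PyMT, with a median of 0.91, and the summed list was 36631 CPM in PyMT and 14472 CPM in wild type. S100a8 stood at 14484 against 4929 CPM (1.56) and Retnlg at 1521 against 396 CPM (1.94). In B cells, S100a8 stood at 7494 CPM in PyMT and 4425 CPM in wild type, and Retnlg at 994 and 304 CPM. Under the limit, the neutrophil share of single Cd209a cells reached 8.86% in PyMT and 5.02% in wild type. The part of free neutrophil RNA in these ratios was not tested. With all 16 and 37 cells, S100a8 turned to -1.10 and S100a9 from 1.71 to -0.82, Wfdc21 from 1.74 to -1.67 and Pglyrp1 from 1.67 to -0.50. In that comparison Camp, Ltf, Ngp, Chil3 and Lcn2 were lower by -3.18, -2.61, -2.29, -2.59 and -2.07, against -0.31, 0.61, 0.66, 0.12 and 0.94 under the limit, where none was called. Lyz2 (-2.65), Apoe (-4.85), Irf8 (-2.03), Ifitm1 (8.00), Il1b (3.79), H2-Oa (3.44) and H2-DMb2 (2.54) kept direction and call with all cells.

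Classical monocytes of the same libraries (894 PyMT and 175 wild-type cells under 10% neutrophil UMIs, chosen by Ly6c2, Ccr2 and Csf1r) gave the same genes for comparison, with 180 of 6438 genes (2.8%) higher and 86 (1.34%) lower in PyMT. Ifitm1 was higher in PyMT monocytes by 5.56, Lrg1 by 3.59, Cxcr2 by 3.18, Il1b by 1.73 and S100a8 by 1.23. H2-DMb1 was lower (-1.18), and H2-DMb2 (-0.76) and H2-Oa (-0.42) were not called. Lyz2 (-0.16), Apoe (-0.26), Fn1 (0.27) and Irf8 (-0.11) were not called either. Ifitm1 and Lrg1 were thus higher in PyMT in both kinds of cell, while Lyz2 and Apoe met the rule in the Cd209a cells and not in the monocytes. The difference between the ratios of the cell types was not tested.

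**Figure D4:**
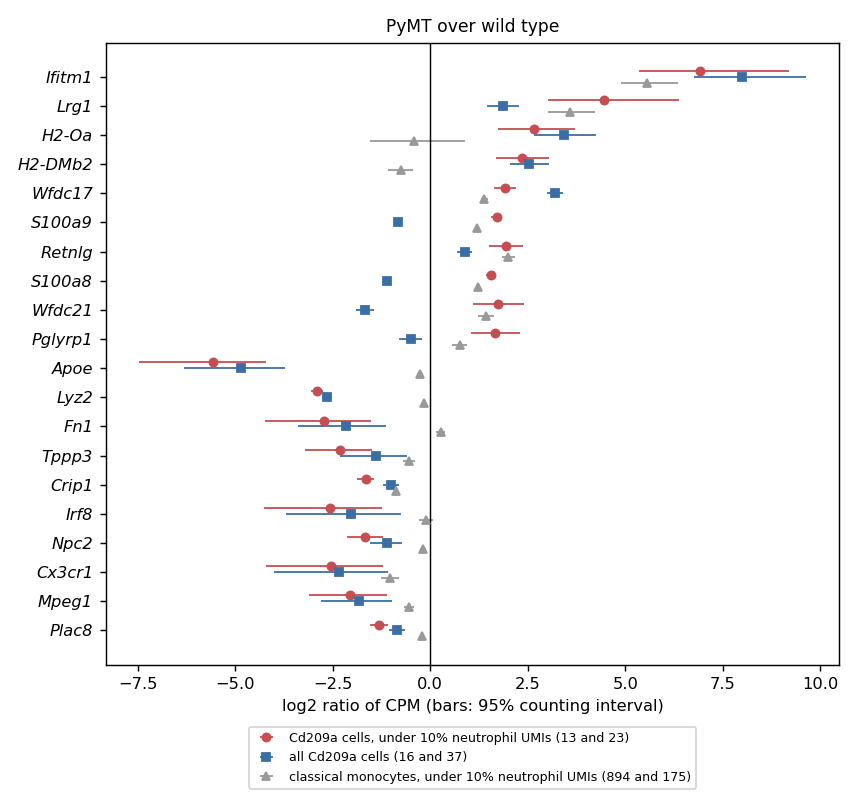
Log2 ratio of CPM, PyMT over wild type, with 95% counting intervals (horizontal) for named genes in Cd209a cells under 10% neutrophil UMIs, in all Cd209a cells and in classical monocytes under 10%. Ifitm1 lies at 6.90, 8.00 and 5.56, and Lyz2 at -2.90, -2.65 and -0.16.

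Within the wild-type library, few genes met the rule between the Cd209a cells and classical monocytes. How many genes differ without meeting it was not tested. With no minimum of predicted UMIs, 62 genes were higher and 62 lower. Over 1870 genes with enough UMIs, 13 (0.695%) were higher in the Cd209a cells under 10% neutrophil UMIs and 34 (1.82%) were lower, the middle gene at -0.02, with 23 cells against 175 monocytes. Tmem176a was higher by 1.12, Clec10a by 1.17 (0.62 to 1.69) and Batf3 by 1.01 (0.45 to 1.54). The eosinophil-associated ribonucleases Ear2 (-2.77) and Ear1 (-2.76), the chitinase-like Chil3 (-1.91) and the glutathione transferase Mgst1 (-1.10) were lower. Of 11 interferon-stimulated genes, Gbp2, Gbp3 and Zbp1 were lower.

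Within the PyMT library, over 1302 genes, 42 (3.23%) were higher in the Cd209a cells and 170 (13.1%) lower, the middle gene at -0.22, with 13 cells against 894 monocytes. H2-DMb1 stood at 922 against 126 CPM (2.87, 2.55 to 3.18), and H2-DMa (1.42), Ltb (2.22), Tmem176a (1.83), Nfkbia (1.62) and Gm2a (1.35) were higher too. The definition asked for MHC class II UMIs in the Cd209a cells but not in the monocytes, of which 30.8% held H2-Aa. The part of that choice in the ratios of H2-DMb1 and H2-DMa was not tested. Of 12 immediate-early genes, 5 were higher: Jun, Junb, Ier5, Dusp1 and Btg2. Lyz2 stood at 3758 against 33278 CPM (-3.15) and Apoe at 39.3 against 1612 CPM (-5.36). Fn1 (-3.55), Chil3 (-3.87), Mgst1 (-4.33) and Irf8 (-2.30) were lower as well. Ear2 and Ear1 had 0 UMIs in the 13 cells and 2821 and 1991 in the monocytes. With the 0 set to 3 counts the log2 ratios were -3.76 and -3.26, and the upper interval bounds were -3.46 and -2.96. Of 12 classical monocyte genes tested, 8 were lower and none higher, with a median of -1.39. The gene minimum rises with the number of UMIs, so the wild-type and PyMT counts are not comparable with each other.

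The cDC1 list stood at 7476 CPM in the Xcr1 subset, 1442 CPM in PyMT and 1055 CPM in wild-type Cd209a cells under 10%, and 972 and 929.9 CPM in all PyMT and wild-type classical monocytes. It includes Xcr1 and Clec9a, which chose the Xcr1 subset and are absent from the monocytes by definition. Classical monocyte genes stood at 38939 CPM in wild-type and 10765 CPM in PyMT Cd209a cells and at 10861 CPM in the Xcr1 subset. They stood at 41074 and 47162 CPM in wild-type and PyMT monocytes, which were chosen by 3 genes of that list, Ly6c2, Ccr2 and Csf1r. Lyz2 alone made up 28039.6 CPM of the wild-type and 3758 CPM of the PyMT Cd209a sum. The cDC2 list stood at 4715 and 4798 CPM in wild-type and PyMT Cd209a cells and at 1370 CPM in the Xcr1 subset, and monocytes had 3079.9 and 3289 CPM. S100a4 alone made up 2474 CPM of the wild-type and 1541 CPM of the PyMT Cd209a sum. The monocyte sums take all monocytes, while those of the Cd209a cells take cells under 10%. With both under 10%, 1 of 10 cDC2 genes tested, Clec10a, was higher in wild-type Cd209a cells than in monocytes, none was lower, and the median was 0.07.

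**Figure D5:**
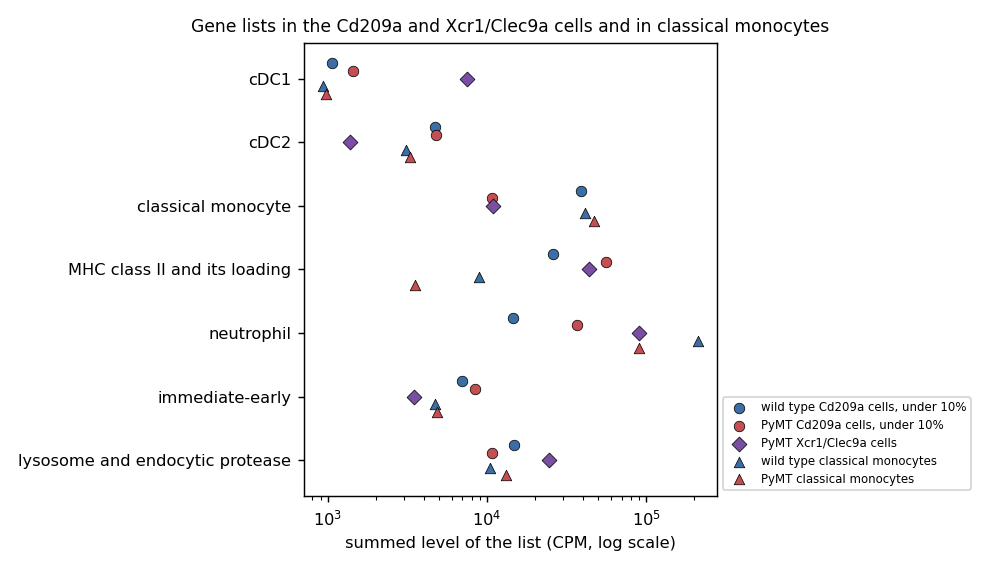
Summed CPM of gene lists (log scale) in the member subsets and in classical monocytes of each library. The cDC1 list, which includes Xcr1 and Clec9a, is highest in the Xcr1 subset (7476 CPM). The classical monocyte list is lower in PyMT Cd209a cells (10765 CPM, of which Lyz2 3758) than in wild-type ones (38939 CPM, of which Lyz2 28039.6).

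Over all members, without regard to subset, 210 of 2994 genes (7.01%) were higher in the 30 PyMT cells and 186 (6.21%) in the 41 wild-type cells, the middle gene at 0.02. Under median-of-ratios scaling these were 173 and 232, so that 42.7% in place of 53% of the called genes were higher. With all 8 Xcr1 cells in PyMT, the cDC1 list had 9 of 12 genes higher and the list common to conventional dendritic cells 8 of 13, with none lower in either. The 8 were Dpp4 (2.42), Kmo (1.92), Itgax (1.65), Bcl11a (1.61), Gm2a, Amica1, Slamf7 and Adam19. Under 10% neutrophil UMIs (23 against 27 cells), 129 of 1785 genes were higher and 123 were lower. There 3 of 9 genes of the common list were higher, Dpp4, Amica1 and Slamf7, and its median went from 1.61 to 0.81. The cDC1 list had 7 of 9 higher. Of 15 classical monocyte genes 7 were lower and none higher with all members, with a median of -0.87, and under 10% 9 of 14 were lower and 1 was higher, with a median of -1.22. Among the genes named by size, Ppt1 was higher by 3.05 and Dnase1l3, a secreted DNase, by 2.98. In these sums a shift in subsets and a shift in level per cell cannot be told apart; members with no Xcr1 or Clec9a UMI gave 182 genes higher and 161 lower.

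The cells outside both subsets were mixed. One wild-type cell with Flt3 (3 UMIs) and Zbtb46 (1 UMI) but no Xcr1, Clec9a or Cd209a held 11 Irf8, 142 Cst3, 5 Naaa and 13 Cd24a UMIs, with 7 of Lyz2. The other such wild-type cell held 0 Irf8 and 7 Cst3 UMIs. The 2 wild-type cells with Cd209a and Clec9a had 1 Clec9a UMI each, 14 and 8 of Cd209a, 40 and 14 of Ly6c2, 3 and 7 of Lyz2, and 0 Csf1r UMIs. Of a plasmacytoid dendritic cell list, these 2 cells held 7 and 21 UMIs of Bst2, 3 and 5 of Tcf4 and 5 and 3 of Atp1b1, but 0 of Siglech and Ccr9. The 6 PyMT cells with neither kind of marker held 2 to 4 Flt3, 0 to 6 Irf8, 9 to 46 Cst3 and 4 to 237 Lyz2 UMIs.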

How the data were processed

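Per the labels' protocols, CD11b+/Gr1+ spleen cells were loaded on 10x Chromium 3′ v2 and sequenced to an average of 48488 reads per cell, and per the submitters' processing notes Cell Ranger 2.1.0 and mm10 were used. The deposited files hold UMI counts per gene and cell for 27998 genes, not normalized. Further cell filters by the authors are not given in the sources used here.

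From the counts, members were found by the rule given and UMIs summed per subset and library; CPM (counts scaled to the same total per sum), log2 ratios and exact conditional 95% intervals followed (Python 3.11.15, numpy 2.4.6, scipy 1.17.1). The members, the rule and the 31 gene lists were chosen with earlier results of these data known. Doublet scores came from simulated doublets (scanpy 1.11.5), with the number set aside from 0.8% per 1000 cells, and TMM factors from edgeR 4.0.16. Classical monocytes had at least 2 Ly6c2, 1 Ccr2 and 1 Csf1r UMIs and no marker UMI.

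Named genes were, on each side of a contrast, the 10 called genes ranked by the interval bound nearest 0, largest first, with at least 50 UMIs and a UMI in at least 10 cells of the higher group (all 8 in the Xcr1 subset); list genes were named beside them. Ribosomal, mitochondrial, receptor-segment, Xist and Y-linked genes and unnamed gene models were left out, as were genes of the definition. Counts of called genes within lists left out the genes of the definition and, in monocyte comparisons, the genes that chose the monocytes. Counts over all genes kept them. Genes named in the text for 1 high cell were chosen after their values were seen.

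Several choices followed the data: the 10% neutrophil limit, the Cd209a comparison with 16 PyMT cells (20 had been set as the minimum), the subset comparison within PyMT because no wild-type cell is in the Xcr1 subset, and at least 10 predicted UMIs in the smaller sum against monocytes. The rule was also run on sums simulated with counting error only and no variation between cells. In the subset comparison it recovered 43% of 86 genes set 2-fold apart and 98.7% of 79 set 4-fold apart. It called 2.12% of 848 unchanged genes. In the Cd209a comparison these were 46.7% of 92, 94.5% of 91 and 1.87% of 2037. The share of unchanged genes that the rule calls when cells vary was not measured. Of 529 list genes, 526 were in the files.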

Additional observations from a re-analysis of the deposited data

How the results depend on the processing

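No paired analysis was possible because each condition is 1 library. The share of members in wild type (0.747%) was 0.51% with at least 3 marker UMIs, 0.455% with MHC class II at 1% or more, 2.57% among cells under 10% neutrophil UMIs and 0.182% after thinning to 1000 UMIs. In PyMT (0.328%) it was 0.218% with no B or T cell UMI, 0.729% among cells under 10% and 0.0546% after thinning.

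Counts of genes moved with the cells and the gene minimum. Higher in the Xcr1 subset (77) became 46 with neutrophil shares at most the members' median, 178 with both libraries pooled, 123 with median of ratios, and 174 and 18 with minimums of 10 and 100 UMIs. Higher in Cd209a cells (150) became 77 with no B or T cell UMI, 89, 283 pooled, 282 and 36. Higher in PyMT members (210) became 129 under 10%, 85 at or below the median, 397 and 42, and higher in wild-type members (186) became 120 with MHC class II at 1%, 123, 117, 323 and 55. Higher in PyMT Cd209a cells (163) became 80 with MHC class II at 1%, 97 with no B or T cell UMI, 69 under 10%, 29 at or below the median, 96 with TMM, 108 with median of ratios, 327 and 34. Higher in wild-type Cd209a cells (157) became 91, 80 under 10%, 45 at or below the median, 252 with TMM and 50 with a minimum of 100. Against monocytes, wild-type genes higher (13) became 26 with all cells and 62 with no predicted minimum, wild-type genes lower (34) became 62, and PyMT genes higher (42) became 418. Fewer cells and higher minimums leave fewer genes to test; the cause of the other moves was not tested.

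Reversed were Ifitm1 between subsets when pooled (0.33), and over all members Fam101b (0.45) and Wfdc17 (-0.13) at or below the median. In Cd209a cells Lcn2, Chil3, Ngp and Ltf gave 0.94, 0.12, 0.66 and 0.61 under 10%, and 1.13, 0.48, 0.85 and 0.37 at or below the median, where Anxa3 gave 0.07. The named genes of the Cd209a comparison under 10% kept direction and call in all 80 values tried, under TMM, median of ratios, equal weight per cell and without doublet-like cells. These genes were chosen for large ratios in the same cells, and TMM, median of ratios and equal weight reused the same 13 and 23 cells. The 80 values are therefore no independent check. Settings that change the definition of members were not tried on this comparison. Of 280 values of named genes between subsets, 270 kept direction and call. Over all members 236 of 260 did. In the Cd209a comparison with all cells 213 of 240 did and 9 reversed. Some settings could not change a value. Between subsets, asking for 3 marker UMIs or MHC class II at 1% kept the same 8 and 16 cells. A quality filter on detected genes and mitochondrial RNA removed no cell in any of these comparisons. Changing the gene minimum leaves each ratio as it was. Values from these settings kept direction by construction and are no check. Most genes of the lists fell under 30 UMIs, and in the simulated sums a 2-fold difference was recovered less often than not at this depth.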
